A study of Mus musculus with 4 samples.

Results

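The costimulatory and checkpoint receptors examined here are 10 genes, Cd28, Ctla4, Icos, Pdcd1, Btla, Vsir, Lag3, Tigit, Havcr2 and Cd27, taken from the deposited table by their gene symbol. All 10 were found among its 25630 rows. The data are 4 RNA sequencing libraries of BEKO cells, a mouse line of thymic lymphoma cells labelled as wild type, with 2 libraries at low density (replicates 1 and 2, called L1 and L2) and 2 at high density (H1 and H2). The labels give no other treatment, cell number, medium or culture time. Since they name no separate cultures, a p-value here sets a difference against the spread of these 4 libraries alone, and that spread may be technical. The test used, limma, takes the spread of a row largely from other rows of similar level (9.53 prior against 2 residual degrees of freedom). Its SE and p-value thus do not reflect the row's own spread alone. Values are TPM, a relative and length-scaled unit of transcript abundance in which every library has the same total. The high density pair was the more uneven, with a pooled SD of log2 values of 0.43 against 0.28 for the low density pair, and L1 had 15553 rows above 0 where the other 3 libraries had 13605 to 13892. Means are given ± SD with n = 2 libraries per group.

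T cells read antigen through the T cell receptor, and receptors of this group add a second signal that raises or lowers the response. CD28 binds CD80 and CD86 on antigen-presenting cells and costimulates, while CTLA-4 binds the same ligands more tightly and restrains. Their relatives ICOS, PD-1 (Pdcd1) and BTLA, the VISTA protein encoded by Vsir, and LAG-3, TIGIT and TIM-3 (Havcr2) act as further costimulators or brakes. CD27 is a costimulator of the TNF receptor superfamily and is carried, like CD28, by developing thymocytes.

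At high density the RNA of 3 of these receptors rose: Cd28, Ctla4 and Vsir. Cd27, the most abundant of the 10 in every library, did not pass the test, nor did Btla and Lag3. Icos, Pdcd1, Tigit and Havcr2 lay below the filter of a mean of 1 TPM over the 4 libraries and were not tested. With limma (Benjamini-Hochberg, BH, adjusted p under 0.05 over 10936 rows) 3 of the 6 tested receptors were called, all higher, where 4.57% of all rows tested were called higher, 2.11% lower and 6.68% in either direction. Both high density libraries lay above both low density libraries in all 6 tested receptors, as in 34.7% of all rows tested. Lag3 passed the filter only through its high density values, so it had to be higher there. The median log2 fold change of the 6 was 1.39, against 0.12 for all rows tested. The 10 receptors were chosen with earlier results of these data known, so these counts and this median are no test of the group.

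**Figure D1:**
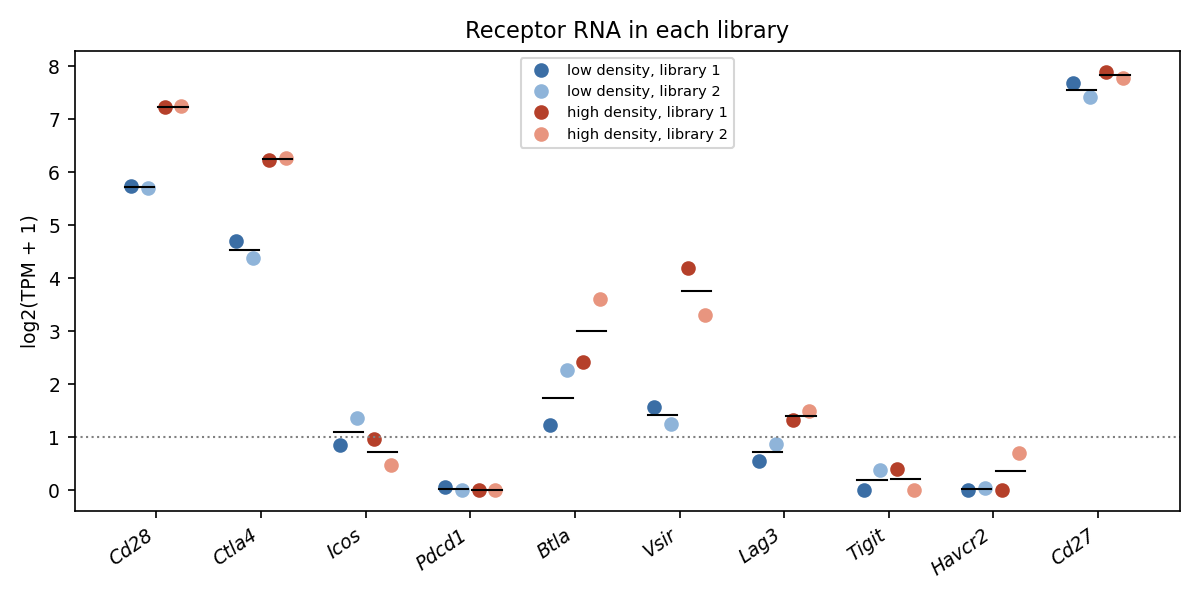
RNA of the 10 receptors as log2(TPM + 1), with a point for each library and a bar at the mean of each group; the dotted line marks 1 TPM. Cd28, Ctla4 and Vsir have both high density points well above both low density points, Cd27 is the highest in each library, and Icos, Pdcd1, Tigit and Havcr2 lie near or below the line.

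Cd28, the costimulator, was at 52.6 and 51.1 TPM in L1 and L2 and at 149.7 and 150.7 TPM in H1 and H2. The libraries of a group differed little and the groups were far apart. The rise was 2.90-fold, from 51.8 ± 1.07 to 150.2 ± 0.693 TPM, with a log2 fold change of 1.52 ± 0.23 (SE; 95% interval 1.01 to 2.03; limma BH-adjusted p = 0.00346). Leaving out any of the 4 libraries left the fold between 2.86 and 2.94, but without L2 the call was lost (limma BH-adjusted p = 0.0556).

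Ctla4, the inhibitory receptor that shares the ligands of CD28, was at 25.01 and 19.8 TPM in L1 and L2 and at 74.2 and 76.3 TPM in H1 and H2. Again the groups did not overlap. It rose 3.36-fold, from 22.4 ± 3.67 to 75.2 ± 1.49 TPM (log2 fold change 1.71 ± 0.26 SE, 95% interval 1.15 to 2.28, limma BH-adjusted p = 0.00314). Without L2 the fold was 3.01 and the call was lost (limma BH-adjusted p = 0.0907). The TPM of Cd28 divided by that of Ctla4 was 2.10 and 2.58 in the low density libraries and 2.02 and 1.98 in the high density libraries. The costimulator was thus the more abundant RNA of the pair in each library, and this ratio was lower in both high density libraries than in either low density one. That difference in ratio was not tested.

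Vsir encodes VISTA, an inhibitory receptor known from myeloid cells and resting T cells. It was at 1.98 and 1.37 TPM in L1 and L2, and at 17.2 and 8.93 TPM in H1 and H2. Both high density values were higher, but they differed from each other by more than the values of Cd28 or Ctla4 did. The rise was 7.80-fold, from 1.68 ± 0.431 to 13.1 ± 5.87 TPM (log2 fold change 2.34 ± 0.38 SE, 95% interval 1.498 to 3.18, limma BH-adjusted p = 0.00474). The fold was 5.32 without H1 and 10.3 without H2. The call was lost after each library had been centred on its median (log2 fold change 2.15, limma BH-adjusted p = 0.0615) and after quantile normalisation (2.17, limma BH-adjusted p = 0.0564). It was also lost without L2 when the filter was set on the remaining libraries (limma BH-adjusted p = 0.0886).

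Promoter windows from RefSeq (GRCm38.p6), running from 250 bases before to 50 bases after the annotated start, were found for 7 of the 10 receptors, among them Ctla4 and Vsir but not Cd28, Icos and Lag3. The windows of the called genes Ctla4 (chr1:60908775-60909074, plus strand) and Vsir (chr10:60346601-60346900, plus strand) are shown because both genes rose. They were searched on both strands for ACGTG, the core of the hypoxia-inducible factor motif, TGANTCA, an AP-1 motif, and GGAAA, an NFAT core. Capitals mark matches on either strand.
Ctla4: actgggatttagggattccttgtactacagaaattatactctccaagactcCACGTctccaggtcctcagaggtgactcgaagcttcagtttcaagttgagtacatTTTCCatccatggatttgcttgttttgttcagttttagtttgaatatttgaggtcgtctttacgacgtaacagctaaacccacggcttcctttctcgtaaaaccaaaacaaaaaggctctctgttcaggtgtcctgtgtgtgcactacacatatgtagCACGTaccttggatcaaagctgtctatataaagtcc
Vsir: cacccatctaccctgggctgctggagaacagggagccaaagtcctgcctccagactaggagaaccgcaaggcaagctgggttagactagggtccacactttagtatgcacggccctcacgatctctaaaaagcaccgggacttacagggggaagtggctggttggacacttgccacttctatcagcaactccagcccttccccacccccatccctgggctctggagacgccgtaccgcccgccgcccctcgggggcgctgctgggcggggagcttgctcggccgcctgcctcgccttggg
The Ctla4 window held 2 matches to ACGTG, starting at positions −199 and 15 from the annotated start, and 1 match to GGAAA at −144. The Vsir window held none of these letters, and its sequence therefore has no capitals. ACGTG was present in 19.6% of 32851 promoter windows, TGANTCA in 7.81% and GGAAA in 61.3%. Btla, which was not called, held 3 matches to ACGTG, of which those at positions 5 and 6 overlap. Tigit and Havcr2, which were near 0 TPM, held 1 match to ACGTG each, and Pdcd1 and Cd27 held none. GGAAA was also found in the windows of Pdcd1, Tigit and Cd27, and TGANTCA in that of Havcr2. Such matches describe the letters in the window and are not evidence of binding.

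Cd27 was at 203.8 and 170.4 TPM in the low density libraries and at 237.7 and 219.7 TPM in the high density libraries. The high density values were the higher ones by a small margin. The log2 fold change of 0.29 ± 0.23 (SE; 95% interval −0.21 to 0.79; limma BH-adjusted p = 0.476) did not pass. Its interval leaves room for a small fall or for a rise of less than the change estimated for Cd28.

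Btla, which dampens T cells on binding HVEM, was at 1.34 and 3.80 TPM in L1 and L2 and at 4.36 and 11.2 TPM in H1 and H2. The lower high density value lay just above the higher low density value. The ratio of means was 3.02, but the spread within groups was wide and the test was not passed (log2 fold change 1.27 ± 0.47 SE, limma BH-adjusted p = 0.131). Without H1 Btla was called higher (log2 fold change 1.86, limma BH-adjusted p = 0.011). The ratio of means ran from 1.70 without H2 to 5.80 without L2.

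Lag3, a CD4 relative that binds MHC class II, was at 0.472 and 0.83 TPM in the low density libraries and at 1.49 and 1.81 TPM in the high density libraries. These levels are low in both groups, and the log2 fold change of 0.69 ± 0.41 (SE, limma BH-adjusted p = 0.340) did not pass. Its neighbour on the chromosome, the coreceptor gene Cd4, was at 105.1 and 83.9 TPM at low and 134.6 and 127.0 TPM at high density.

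**Figure D2:**
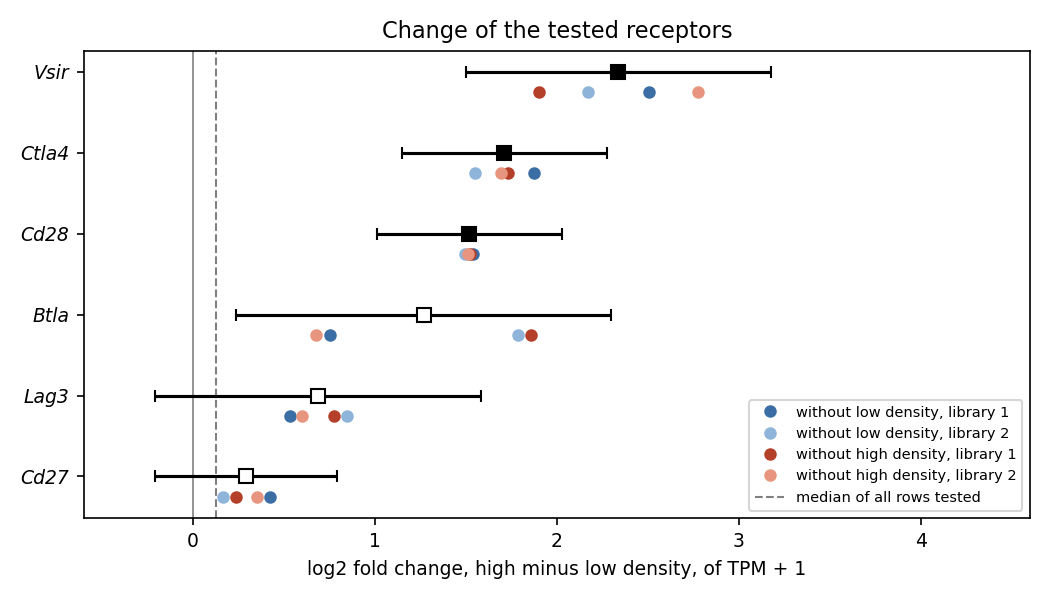
Log2 fold change of TPM + 1, high minus low density, of the 6 tested receptors: squares with 95% intervals from limma, filled where called, and coloured points for the value without each library. The points of Cd28 fall almost on each other, those of Btla split into 2 pairs, and the dashed line at 0.12 marks the median of all rows tested.

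Pdcd1, Tigit and Havcr2, often described on exhausted T cells, were near 0, and Icos was low. Pdcd1, the gene of PD-1, was at 0.0408 TPM in L1 and is listed at 0 in the other 3 libraries. Tigit was listed at 0 in L1 and H2 and was at 0.30 and 0.325 TPM in the other 2. Havcr2 was listed at 0 in L1 and H1, and was at 0.0265 TPM in L2 and 0.635 TPM in H2. Icos, the inducible costimulator, was at 0.798 and 1.55 TPM at low and 0.963 and 0.38 TPM at high density, so its groups overlapped. TPM keeps no read number, so a detection limit cannot be given for these 4 genes.

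Ordered by level at low density, Cd27 came first, then Cd28 and Ctla4, with no overlap between neighbours in either group. Cd27 lay above 96.4% and 95.8% of all rows in the low density libraries and Cd28 above 84.8% and 85.5%. At high density Cd28 lay above 95.2% and 94.6% of rows, close to Cd27 at 97.4% and 96.9%. Btla and Vsir followed and overlapped each other in both groups, and at low density both overlapped Icos. Icos and Lag3 came next and overlapped at low density, while at high density Lag3 was the higher of the pair.

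The 10 receptors summed to 286.0 and 249.1 TPM in the low density libraries and to 485.9 and 469.6 TPM in the high density libraries. Cd27, Cd28 and Ctla4 together made up between 94.99% and 98.4% of the sum in each library. The share of Cd27 was 71.3% and 68.4% in L1 and L2 and 48.9% and 46.8% in H1 and H2. The share of Cd28 was 18.4% and 20.5% in L1 and L2 and 30.8% and 32.1% in H1 and H2, and that of Ctla4 8.74% and 7.95% against 15.3% and 16.2%. Cd27 was thus 3.88 and 3.34 times as abundant as Cd28 at low density, and 1.59 and 1.46 times at high density. In such bulk RNA, more cells with a receptor and more RNA per cell cannot be told apart.

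**Figure D3:**
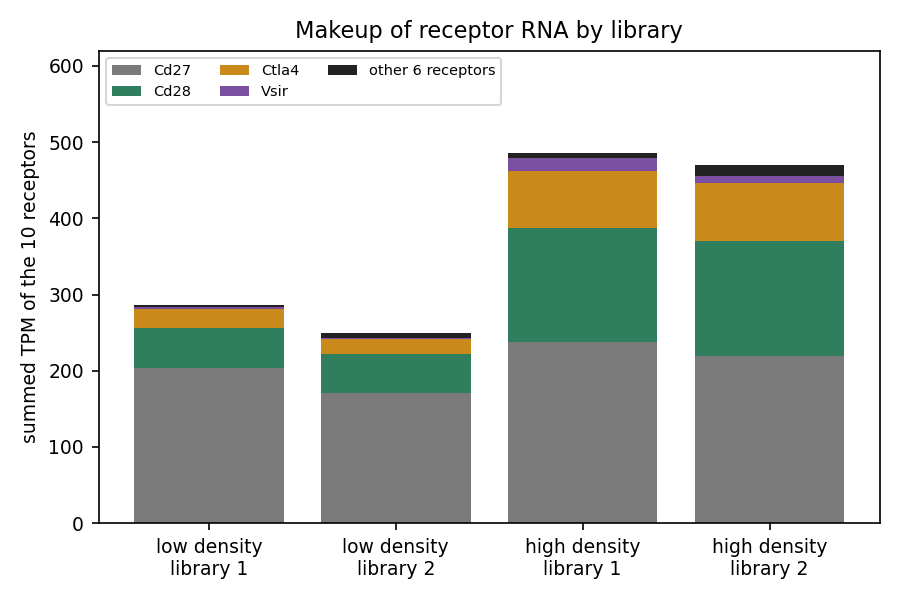
Summed TPM of the 10 receptors in each library, stacked by gene, with the bars starting at 0. The Cd27 segment is similar in the 4 bars, and the Cd28 and Ctla4 segments are larger in both high density libraries.

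Cd28, Ctla4 and Icos follow each other on the mouse chromosome with no other protein-coding gene between them, per RefSeq (GRCm38.p6, used for gene order only). The first 2 rose and Icos stayed near 1 TPM or below in 3 libraries. The protein-coding gene on the other side of Cd28 is Raph1, which encodes the actin regulator lamellipodin. It was picked for its position after the receptor values were known. It was at 3.25 and 2.44 TPM at low and at 7.80 and 8.50 TPM at high density (log2 fold change 1.26 ± 0.34 SE, limma BH-adjusted p = 0.0481). That call lay close to the threshold. It was lost without L1 (limma BH-adjusted p = 0.265) or L2 (0.648), after median centring (0.0734), after quantile normalisation (0.0738), after rescaling without ribosomal protein genes (0.0549) and with the replicate number as a block (0.0526). Pard3b, a cell polarity gene on the far side of Icos, was at 0.112 to 0.717 TPM in the 4 libraries. Psap and Slc29a3, the nearest protein-coding genes that do not overlap Vsir, were not called (limma BH-adjusted p = 0.849 and 0.459). Tuba3a, beside the uncalled Cd27, was called higher (limma BH-adjusted p = 0.0343), and passed the filter only through its high density values.

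**Figure D4:**
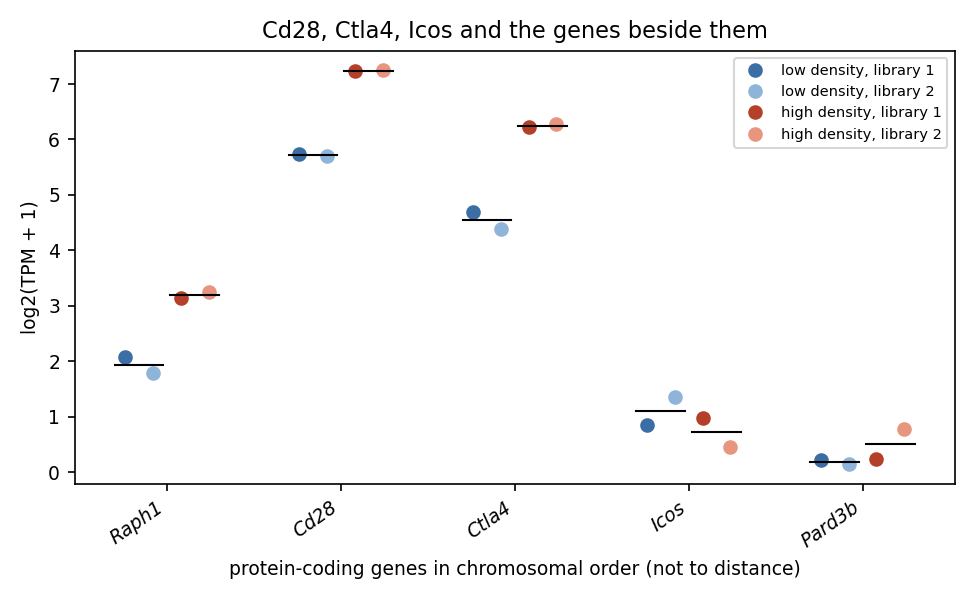
Log2(TPM + 1) of Cd28, Ctla4, Icos and the protein-coding gene on either side, in chromosomal order and not to distance, with a point for each library and a bar at the mean of each group. Raph1, Cd28 and Ctla4 are higher in both high density libraries, and the groups overlap for Icos.

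Other rows overlap some receptors in the RefSeq annotation, and whether the authors' counting kept strands apart is not stated in these sources. Vsir lies within Cdh23, a cadherin gene whose row was at 0.103 to 0.739 TPM, below the Vsir row in each library. The row Gm17455 also overlaps Vsir. It was listed at 0 in L1 and L2, was at 0.640 and 0.769 TPM in H1 and H2, and was not tested. Tigit overlaps the span of Zbtb20, a zinc finger repressor gene at 0.922 and 0.803 TPM in L1 and L2 and 5.53 and 2.82 TPM in H1 and H2 (limma BH-adjusted p = 0.0596). The microRNA row Mir568 also overlaps Tigit, and was listed at 0 in L1, at 0.871 TPM in L2 and at 11.3 and 9.93 TPM in H1 and H2 (limma BH-adjusted p = 0.00166). Cd27 overlaps the non-coding RNA gene E130112N10Rik, at 4.95 and 6.53 TPM in L1 and L2 and 10.8 and 12.8 TPM in H1 and H2, and the microRNA row Mir8113, at 1.22 and 0.56 TPM against 4.86 and 3.19 TPM. Cd27 itself was at 170.4 TPM or more, and neither overlapping row was called (limma BH-adjusted p = 0.103 and 0.0581). Zbtb20 and Mir8113 were called without the mean-variance trend (limma BH-adjusted p = 0.038 and 0.0353) and with robust moderation (0.0459 and 0.0455). They were also called with the replicate number as a block (limma BH-adjusted p = 0.0264 and 0.028). Their ratios of means were 3.27 and 3.59 without H1 and 6.41 and 5.455 without H2. That of E130112N10Rik was 2.23 without H1 and 1.89 without H2. Zbtb20, Mir568 and Mir8113 passed the filter only through their high density values.

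For each tested receptor the rows closest in pattern were found as the smallest Euclidean distance of log2(TPM + 1), centred on the row mean, over the 4 libraries among 10044 named rows. The closest to Cd28 were Lysmd3 (distance 0.0855), Dirc2 (0.0966) and Tut4 (0.126), the last a terminal uridylyltransferase. The closest to Ctla4 were Fam78a (0.106), the sodium/proton exchanger gene Slc9a9 (0.111) and the F-box gene Fbxl20 (0.166). Slc9a9 was at 22.1 and 17.7 TPM at low and 71.6 and 73.0 TPM at high density, close to Ctla4 in level as well. The closest to Vsir were Egln1 (0.122), which encodes an oxygen-sensing prolyl hydroxylase, the hexokinase gene Hk2 (0.131) and Dbp (0.149), a clock-controlled transcription factor gene. Egln1 was at 87.5 and 68.0 TPM at low and 548.2 and 322.0 TPM at high density, and like Vsir it was higher in H1 than in H2. For Btla they were Gpat3 (0.342), Tstd3 (0.373) and Ttc26 (0.466), for Lag3 Gpt (0.0325), Hscb (0.0831) and Dennd1c (0.108), and for Cd27 Ehmt2 (0.0201), Dcaf15 (0.028) and Tmbim6 (0.0302). With 4 libraries these distances describe a pattern and carry no test.

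Of 17 listed ligands and counter-receptors, 10 passed the filter, 1 rose and 0 fell, with a median log2 fold change of 0.096. Pvr, the poliovirus receptor that TIGIT binds, was at 34.8 and 29.5 TPM at low and 63.6 and 77.5 TPM at high density (log2 fold change 1.11 ± 0.26 SE, limma BH-adjusted p = 0.0256). Its groups did not overlap, but the call was lost without L1 (limma BH-adjusted p = 0.212) or L2 (0.538) and without the mean-variance trend (0.0501). Cd86, Icosl and Cd70, ligands of CD28 and CTLA-4, of ICOS and of CD27, were listed at 0 in all 4 libraries, as was the VISTA ligand gene Igsf11. Cd80, the other ligand of CD28 and CTLA-4, was at 5.48 and 5.38 TPM at low and 3.28 and 2.88 TPM at high density (limma BH-adjusted p = 0.273). The values were lower at high density without overlap, and the test was not passed.

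Cd274, which encodes PD-L1, was at 5.84 and 5.50 TPM at low and 9.26 and 9.72 TPM at high density (limma BH-adjusted p = 0.235). Selplg, the PSGL-1 gene, whose product binds VISTA at acidic pH, was at 69.3 and 60.8 TPM at low and 91.8 and 117.4 TPM at high density (limma BH-adjusted p = 0.130). Neither passed, though the groups of both did not overlap, as in 54.7% of all rows tested in either direction. Without H1 Selplg was called higher (limma BH-adjusted p = 0.0127). The most abundant ligand gene was Lgals9, which encodes the TIM-3 ligand galectin-9, at 994.5 and 726.8 TPM at low and 764.8 and 482.8 TPM at high density, with overlapping groups.

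**Figure D5:**
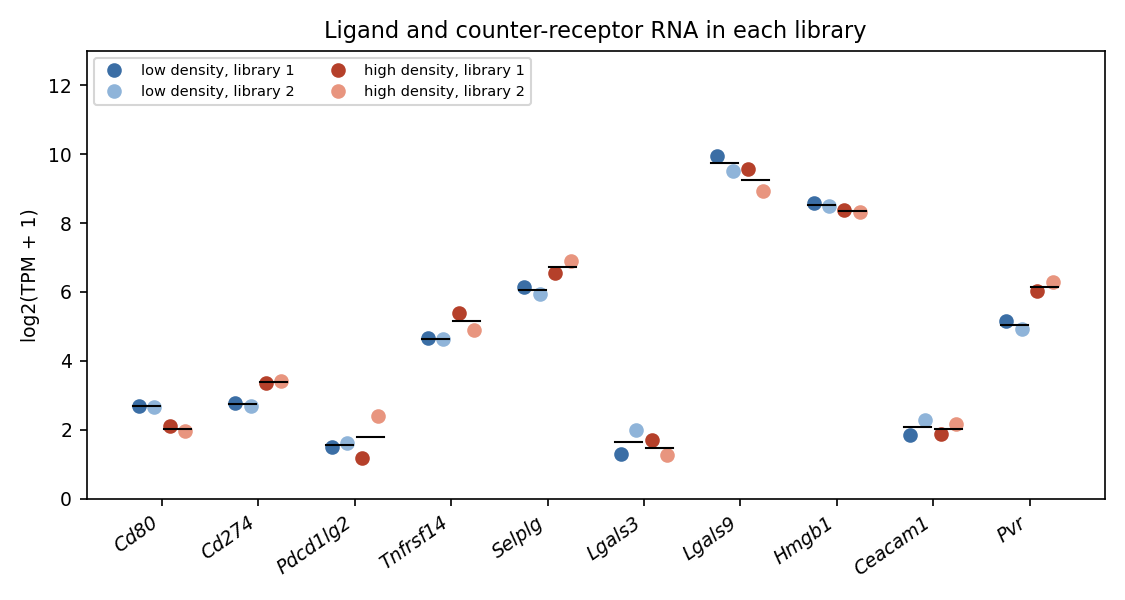
Log2(TPM + 1) of the 10 tested ligand and counter-receptor genes, with a point for each library and a bar at the mean of each group. Pvr is the called gene, Cd80 is lower and Cd274 and Selplg are higher in both high density libraries without passing the test, and Lgals9 is the highest.

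Among 21 other costimulatory and inhibitory receptors, 9 passed the filter, 1 rose and 1 fell, with a median log2 fold change of 0.48. Cd2, an adhesion and costimulatory receptor, was at 99.8 and 91.4 TPM at low and at 309.7 and 278.2 TPM at high density (log2 fold change 1.61 ± 0.23 SE, limma BH-adjusted p = 0.00225), a rise close in size to those of Cd28 and Ctla4. Tnfrsf8, which encodes the TNF receptor family member CD30, fell from 170.8 and 155.9 TPM to 55.6 and 84.3 TPM (log2 fold change −1.24 ± 0.26 SE, limma BH-adjusted p = 0.0172). The Tnfrsf8 call was lost without L1 (limma BH-adjusted p = 0.169) or L2 (0.157). Cd5, an inhibitor of T cell receptor signalling, was at 0.19 and 0.489 TPM at low and 2.95 and 2.43 TPM at high density and did not pass (limma BH-adjusted p = 0.053). It passed the filter only through its high density values, which fixed its direction. It was called without the mean-variance trend (limma BH-adjusted p = 0.0195), with robust moderation (0.0441) and with the replicate number as a block (0.0223). The ratio of means of Cd5 was 7.15 without H1 and 8.69 without H2. Tnfrsf18, the GITR gene, was at 61.9 and 52.5 TPM at low and 66.5 and 115.2 TPM at high density. Slamf6 was lower instead, with 72.3 and 64.2 TPM in L1 and L2 against 40.7 and 32.0 TPM in H1 and H2. Its groups were thus apart, but the fall narrowly missed the threshold (log2 fold change −0.90 ± 0.26 SE, limma BH-adjusted p = 0.0582).

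Signalling, adaptor and trafficking genes that act with these receptors gave 0 limma calls among 28 tested, with 8 at an unadjusted p under 0.05 (2569 of the 10936 rows in all) and a median change of 0.19 on the log2 scale. Among those with the smallest p-values were Akt1, a kinase downstream of CD28, and Lrba, which keeps CTLA-4 from lysosomal breakdown. Akt1 was at 123.4 and 117.6 TPM at low and 77.4 and 67.5 TPM at high density (limma BH-adjusted p = 0.087). Lrba was at 12.9 and 10.8 TPM at low and 20.8 and 24.1 TPM at high density (limma BH-adjusted p = 0.0917). Groups did not overlap for either gene, as in 54.7% of all rows tested in either direction. Leaving out any 1 library left the ratio of means between 0.560 and 0.642 for Akt1 and between 1.74 and 2.09 for Lrba.

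Of 20 transcription factors known to act on such receptor genes in T cells, 15 passed the filter, 2 rose and 0 fell, and the median log2 fold change was 0.43. Gata3 was at 72.7 and 58.4 TPM at low and 263.8 and 138.5 TPM at high density (limma BH-adjusted p = 0.013). Batf, an AP-1 partner, was at 0.435 TPM in L1 and listed at 0 in L2, and was at 2.25 and 6.29 TPM at high density (limma BH-adjusted p = 0.0272). Batf passed the filter only through its high density values, so it had to be higher there. Both calls were lost after median centring (limma BH-adjusted p = 0.113 for Gata3 and 0.0773 for Batf), after quantile normalisation (0.0836 and 0.0748) and without L2 (0.106 and 0.0947). That of Batf was also lost after rescaling without ribosomal protein genes (limma BH-adjusted p = 0.0517) and with a pseudocount of 5 (0.0508). Tox, a regulator of exhaustion, was at 61.7 and 48.1 TPM at low and 61.1 and 50.6 TPM at high density, and Foxp3, the regulatory T cell factor, stayed at or below 0.252 TPM. Over the 4 lists together limma called 5 of 62 tested genes, near the 6.68% called among all rows. The count was 3 without L1, 1 without L2, 26 without H1 and 15 without H2, and the calls over all 10936 rows moved the same way, from 731 to 320, 233, 3270 and 2420.

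All 13 T lineage markers passed the filter and summed to between 7377 and 8380 TPM per library, with Cd3e at 323.6 to 473.1 TPM. The sum covers changes in both directions, since 2 of the 13 rose and 2 fell. Among all rows tested 4.57% were called higher and 2.11% lower. The receptor constant regions Trac (14.4 and 13.4 TPM in L1 and L2 against 84.8 and 115.6 TPM in H1 and H2, limma BH-adjusted p = 0.000326) and Trdc (18.1 and 16.05 against 101.5 and 77.1 TPM, 0.000911) rose. The recombinase genes Rag1 (608.9 and 480.2 against 184.8 and 181.5 TPM, limma BH-adjusted p = 0.00283) and Rag2 (47.7 and 40.6 against 15.99 and 12.9 TPM, 0.00702) fell, the Rag2 call being lost without L1 (0.254) or L2 (0.148). These called markers of T cell stage thus changed along with the receptors, and their part in the receptor values was not tested. The stage markers Dntt and Ptcra were not called. Dntt was at 771 and 553.5 TPM in L1 and L2 against 1389.8 and 725.5 TPM in H1 and H2. Its groups overlapped (limma BH-adjusted p = 0.251). Ptcra was at 1102.2 and 971 against 790.5 and 766.1 TPM (limma BH-adjusted p = 0.283). The 13 myeloid markers summed to 34.1 and 27.5 TPM in L1 and L2 and to 27.4 and 26.6 TPM in H1 and H2. Lyz2, Cd14 and Itgax were listed at 0 in all libraries, and Csf1r was at most 0.203 TPM. Tyrobp was at 0.275 and 0.126 TPM in L1 and L2 and at 0.822 and 2.45 TPM in H1 and H2. It lay below the filter and was not tested. S100a9 was at 7.36 TPM and Mpo at 0.588 TPM in L1, and both were listed at 0 elsewhere. Most of each sum came from Itgam and Cd68, which moved in opposite directions. Itgam was at 8.27 and 6.62 TPM in L1 and L2 and at 16.1 and 12.1 TPM in H1 and H2. Cd68 was at 14.9 and 17.7 against 9.36 and 8.46 TPM. Neither was called (limma BH-adjusted p = 0.134 and 0.129), and their part in the receptor values was not tested. The 7 B cell markers summed to 0.384 to 3.01 TPM. Of the 7 NK markers Ncr1, Klrk1, Klrd1 and Klre1 were listed at 0, and Gzma, which T cells also express, rose from 293.3 and 259.3 TPM in L1 and L2 to 989.8 and 551.6 TPM in H1 and H2 (limma BH-adjusted p = 0.0128). The Gzma call was lost after median centring (limma BH-adjusted p = 0.127) and without L2 (0.104), and its part in the receptor values was not tested. The 9 stromal markers summed to 110.2 TPM in L1 and to 38.4 to 52.7 TPM in the others. Most of each sum was the single gene Pecam1, at 62.5, 51.8, 47.9 and 37.4 TPM in L1, L2, H1 and H2. Epcam and Cdh5 were listed at 0 in all libraries. Col1a1 was at 30.3 TPM in L1 and at most 0.236 TPM elsewhere. Without that library Cd28, Ctla4 and Vsir were still called, with folds of 2.94, 3.80 and 9.53.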

How the data were processed

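The deposited table holds TPM values from the authors in 4 columns, each with a sum of 1000000, and the labels name the column of each sample. Strand-specific libraries were made from total RNA, per the labels' protocols. The genome build mm9 and DESeq2 1.2.10 are named in the submitters' processing notes without a role. The aligner, the counter and the gene lengths are not stated in these sources. Rows were named by symbol apart from 699 Ensembl identifiers, of which 699 were matched to one. TPM keeps no depth, so counting error is unknown, and a rise of abundant RNAs lowers all other values.

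High density was compared with low density on log2(TPM + 1) with limma 3.58.1 in R 4.3.3 (group term, mean-variance trend, two-sided) over rows averaging 1 TPM or more across the 4 libraries. This scale understates changes of low rows. Folds are ratios of the group means of TPM. The 10 receptors and all lists were chosen with earlier results of these data known. All receptors are named. From each other list the called genes, or up to 3 genes of smallest p, are named, and further genes were picked after their values were seen. A gene set by this rule is not reported here, though it stays in the counts. The fit was tested on simulated data with changes set in 200 rows above 10 TPM at low density. Each simulated row had the same spread in all 4 libraries, unlike the uneven pairs here. The fit called 17.6% of 2-fold and 96.2% of 4-fold changes, so 2-fold changes mostly went uncalled there. These shares do not cover lower rows such as Vsir, Btla and Lag3. Alternatives covered the pseudocount, filter, scaling, moderation, replicate block and leaving out each library. A filter set on the remaining libraries was added after the data were seen.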

Additional observations from a re-analysis of the deposited data

How the results depend on the processing

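The log2 fold changes of Cd28, Ctla4, Vsir, Btla and Cd27 were positive under all 14 alternatives planned, and that of Lag3 under the 13 that tested it. Cd28 and Ctla4 were called under 12 of the 14 and Vsir under 11. With all rows kept, however low, limma called 0 receptors, 0 of the listed ligands, other receptors, signalling genes and regulators, and 0 of all rows (4, 20 and 2565 at an unadjusted p under 0.05). Adjusted p was then 0.0745 for Cd28, 0.215 for Ctla4 and 0.399 for Vsir; the cause was not tested. Centring each library on its median gave 314 calls over all rows (51.0% higher, against 68.4% of 731) and 3 of the listed genes, and quantile normalisation gave 360 (60.0% higher) and 3. Both left 2 receptors called. Leaving out 1 library gave 1 to 4 receptors, 1 to 26 listed genes and 233 to 3270 rows called. With the filter set on the remaining libraries these were 0 to 4 receptors and, without L1, L2, H1 and H2 in turn, 3, 0, 28 and 14 listed genes and 299, 181, 3734 and 2562 rows. Where a library is left out, the lone one is assumed to vary like the other group. In the replicate block fit 3 receptors, 7 listed genes and 937 rows were called. Replicate numbers are not tied to a shared culture in the labels, and deviations of same-numbered libraries correlated at 0.0416 across rows, so the numbers were not taken to pair the libraries. Levels under about 1 TPM are limited by an unknown depth.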
